A study of Homo sapiens with 4 samples.

Results

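The 39 genes described here are tumour suppressors and tumour markers with reports of promoter methylation in carcinomas of the mouth, head and neck. They were chosen by name for those reports, with earlier results of these data known. Each of the 39 names was found once among the 51103 genes of the deposited count table. RNA was sequenced from CAL27, a human line from a tongue carcinoma, and from a second line labelled SCC15, the name of an oral squamous carcinoma line. Cells of each line received either DMSO, the solvent, or decitabine (DAC in the labels) at 10 µM, and were lysed after 48 h. Each of the 4 combinations of line and treatment had 1 library of polyadenylated RNA, so no value has a replicate culture of its own, and the other cell line is the only replicate of the treatment.

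Many gene promoters lie in stretches rich in CG dinucleotides, where methylation of the cytosine goes along with a silent gene. DNA methyltransferases copy the marks onto new strands after replication. Decitabine is a cytidine analogue that is built into DNA and traps these enzymes, so that dividing cells lose methylation, and transcripts of genes kept silent by it can appear. In oral carcinoma, methylation of genes for cell adhesion, DNA repair, cell death and retinoid response has been studied as a marker in saliva and tissue. The libraries hold RNA alone, and the methylation of these promoters was not measured.

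The CAL27 libraries held 14524461 counted reads without and 14714809 with the drug, and those labelled SCC15 held 14830807 and 17583706. Where a library had 0 reads, 3 reads served as the upper limit, which is 0.179 to 0.214 CPM (reads scaled to a common library size). Of the 10 squamous epithelial markers examined, all 10 had reads in both CAL27 libraries. In the library labelled SCC15 with DMSO 7 of the 10 were at 0, among them the keratin gene KRT5 (8054, 8359, 0 and 1 reads). Here and below, 4 values stand in the order untreated CAL27, treated CAL27, untreated SCC15-labelled, treated SCC15-labelled. The 10 squamous markers summed to 2332 and 2208 CPM in CAL27 and 21.9 and 124 CPM in the libraries labelled SCC15. The libraries labelled SCC15 had high reads of vimentin (VIM: 41, 80, 37300 and 27011) and chromogranin A (CHGA: 0, 0, 1040 and 2429). These libraries are therefore called SCC15-labelled, and whether they come from the squamous line of that name was not tested. Of 4 leukocyte markers PTPRC had 0 reads throughout, and the list summed to 1.23, 3.08, 0.285 and 4.29 CPM. Of 5 fibroblast markers DCN had 0 reads throughout, and the list summed to 19.7, 51.1, 7.71 and 34.3 CPM, higher with decitabine in both lines. The part of these marker differences in the results below was not tested.

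Promoter sequences from RefSeq (build GRCh38.p14; 250 bases before to 50 bases after the transcript start) matched 30 of the 39 genes. SEPT9 was matched under its current symbol, SEPTIN9. The windows of 6 genes are shown because they cover the kinds of pattern found below. TFPI2 and UCHL1 had few or no reads with DMSO and more with decitabine in at least 1 line. MGMT and CHFR had 0 reads in all libraries of one line and stayed there with the drug, as did SOX1. GSTP1 was abundant in every library. Sequences run 5′ to 3′ on the strand of the gene, and capitals mark each CG dinucleotide, the site of methylation.
TFPI2 (chr7:93890704-93891003, minus strand): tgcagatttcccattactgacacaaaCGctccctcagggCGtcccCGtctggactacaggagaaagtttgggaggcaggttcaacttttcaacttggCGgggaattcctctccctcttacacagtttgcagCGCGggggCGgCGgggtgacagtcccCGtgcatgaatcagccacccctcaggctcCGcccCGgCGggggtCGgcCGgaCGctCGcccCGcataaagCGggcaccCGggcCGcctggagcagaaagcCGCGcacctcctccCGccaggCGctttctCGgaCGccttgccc
UCHL1 (chr4:41256678-41256977, plus strand): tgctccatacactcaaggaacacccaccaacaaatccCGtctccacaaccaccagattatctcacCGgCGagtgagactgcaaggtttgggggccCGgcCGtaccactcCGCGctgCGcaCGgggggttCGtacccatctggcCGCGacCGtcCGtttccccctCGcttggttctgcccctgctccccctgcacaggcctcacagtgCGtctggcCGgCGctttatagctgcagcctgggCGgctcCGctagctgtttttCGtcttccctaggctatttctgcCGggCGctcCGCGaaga
MGMT (chr10:129466991-129467290, plus strand): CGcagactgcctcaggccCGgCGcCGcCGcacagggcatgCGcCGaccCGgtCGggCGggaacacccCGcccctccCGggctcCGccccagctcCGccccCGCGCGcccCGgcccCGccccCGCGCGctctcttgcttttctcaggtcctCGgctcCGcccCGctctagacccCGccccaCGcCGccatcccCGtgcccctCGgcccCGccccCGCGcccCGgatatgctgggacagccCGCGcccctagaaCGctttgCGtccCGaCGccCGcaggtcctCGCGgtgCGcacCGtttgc
CHFR (chr12:132887556-132887855, minus strand): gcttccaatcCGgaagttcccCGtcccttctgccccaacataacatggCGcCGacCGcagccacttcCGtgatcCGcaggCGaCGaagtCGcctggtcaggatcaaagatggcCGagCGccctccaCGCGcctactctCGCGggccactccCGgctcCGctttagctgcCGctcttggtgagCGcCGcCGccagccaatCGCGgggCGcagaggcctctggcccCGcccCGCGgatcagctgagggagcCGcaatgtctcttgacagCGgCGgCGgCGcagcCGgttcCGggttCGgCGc
SOX1 (chr13:112066899-112067198, plus strand): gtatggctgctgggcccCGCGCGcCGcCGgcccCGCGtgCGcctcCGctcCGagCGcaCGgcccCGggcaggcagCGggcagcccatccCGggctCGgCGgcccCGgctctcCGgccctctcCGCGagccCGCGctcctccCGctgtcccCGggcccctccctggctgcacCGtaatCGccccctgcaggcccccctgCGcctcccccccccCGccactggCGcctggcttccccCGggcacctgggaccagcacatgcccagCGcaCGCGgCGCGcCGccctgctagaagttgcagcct
GSTP1 (chr11:67583562-67583861, plus strand): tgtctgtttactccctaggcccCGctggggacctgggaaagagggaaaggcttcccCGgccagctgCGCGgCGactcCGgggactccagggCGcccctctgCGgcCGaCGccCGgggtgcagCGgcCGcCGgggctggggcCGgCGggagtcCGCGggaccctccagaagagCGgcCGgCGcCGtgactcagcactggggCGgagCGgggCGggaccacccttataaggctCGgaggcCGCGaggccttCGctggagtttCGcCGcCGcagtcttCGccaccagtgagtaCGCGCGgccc

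The MGMT window held 45 CG, more than 96.6% of the first-listed windows of 27305 genes, and the CHFR and SOX1 windows held 37 each. The GSTP1 window held 36, close to these, while its transcript was the most abundant of the 39. TFPI2 had 26 and UCHL1 25. EDNRB also had 0 reads in both libraries of 1 line, and its window, not shown, held 14 CG, equal to the median of all genes. A window with GC content of at least 50% and an observed over expected ratio of CG of at least 0.6 was called CG-rich. In the first-listed window this held for 20 of the 30 matched genes, 66.7%, against 46.9% of all genes. With any listed window it held for 25 of 30, against 50.2% of all genes. The 27305 genes were not limited to protein-coding genes, and the share among protein-coding genes alone was not computed. CG itself was searched on 1 strand, since it reads the same on the other, and 95.8% of all first windows hold at least 1. The median was 25.5 CG for the 30 genes and 14 for all genes. FHIT and ESR1, with 0 and 4 CG in the first window, have 2 and 6 listed windows. Of these windows, 0 were CG-rich for FHIT and 1 for ESR1.

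**Figure D1:**
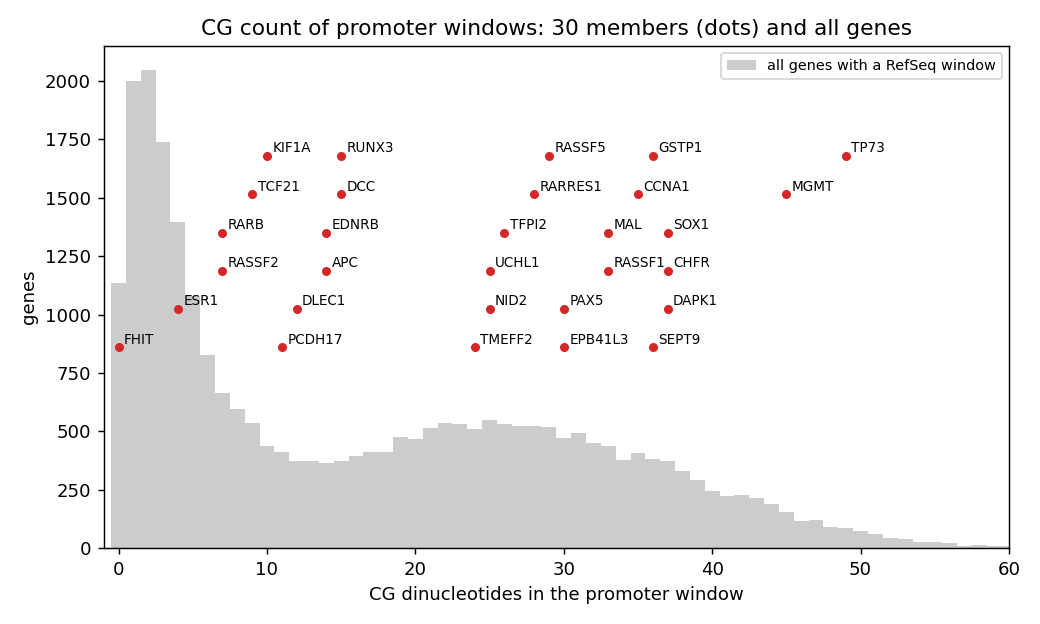
Number of CG dinucleotides in the 300-base promoter window (horizontal axis) for all genes with a RefSeq window (grey bars, vertical axis: genes) and for the 30 matched genes (red dots, whose height has no meaning). MGMT with 45 and TP73 with 49 CG lie to the right, and 5 genes have fewer than 10.

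Levels between genes are compared per length, as FPKM, which the authors computed. GSTP1, a glutathione transferase that detoxifies electrophiles, was listed at 444, 547, 186 and 248 FPKM. Only SEPT9, the cytoskeletal septin, and CDH1, the adhesion protein E-cadherin, reached 30 FPKM in another place: SEPT9 at 25.2, 39.2, 22.0 and 58.3 FPKM, and CDH1 at 30.4, 43.0, 0.0437 and 0.00921 FPKM. At the other end, PAX1, SOX17, PCDH17 and EPB41L3 had 0 reads in all 4 libraries, and 10 of the 39 genes stayed under 10 reads in every library. Of all 19922 protein-coding genes 15.5% had 0 reads throughout. In bulk RNA a lower level in every cell and fewer cells with the transcript cannot be told apart.

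**Figure D2:**
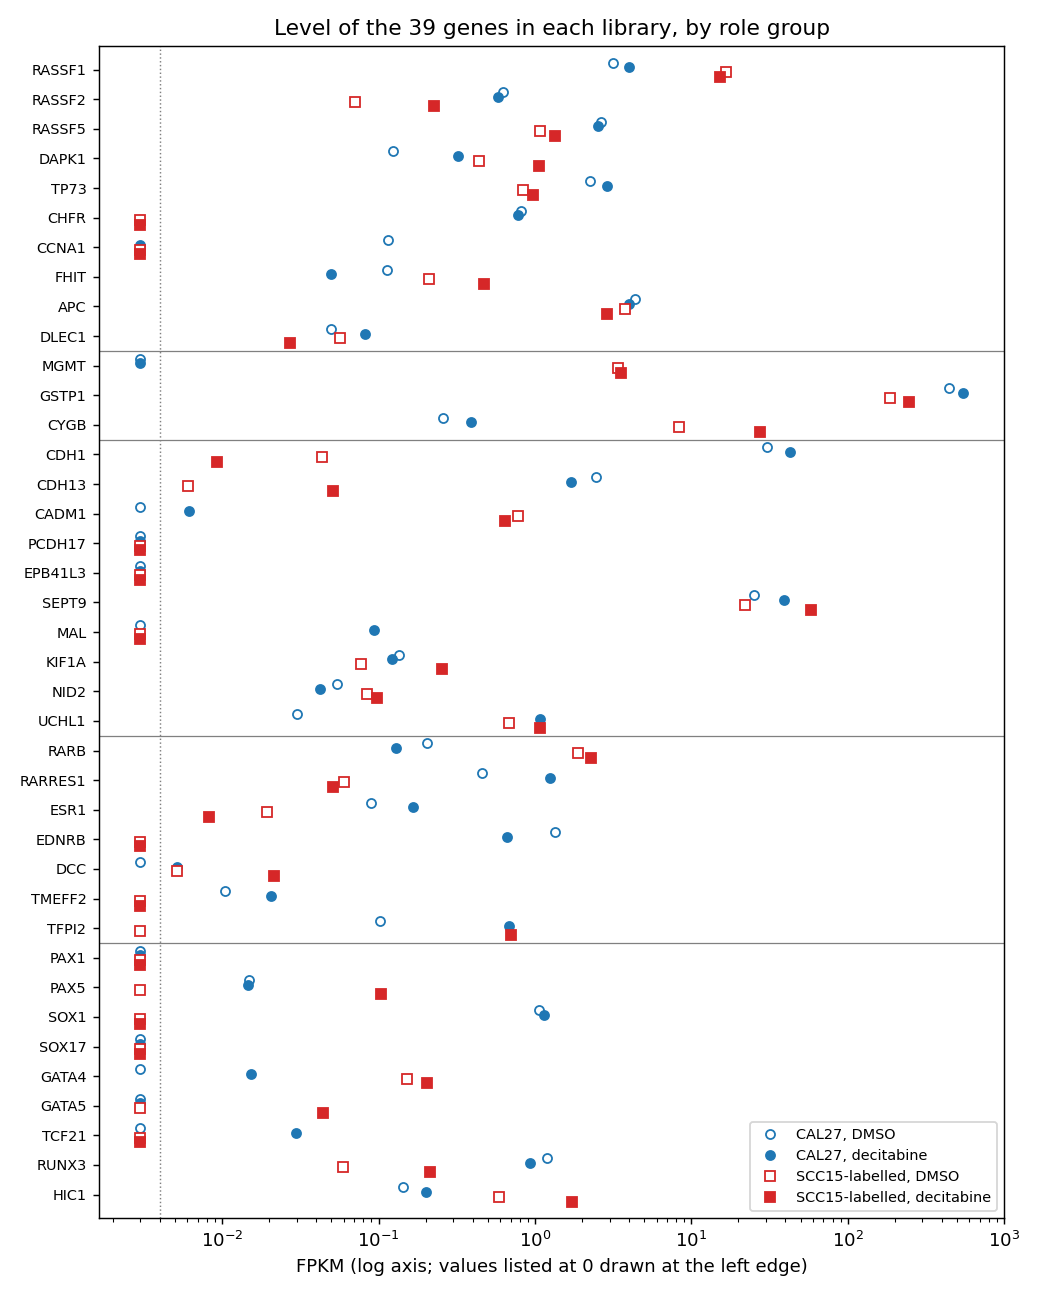
FPKM (log axis) of the 39 genes in the 4 libraries, 1 row per gene, grouped from top to bottom into signalling, repair and detoxification, adhesion and cytoskeleton, receptors and secreted factors, and transcription factors. Circles are CAL27 and squares SCC15-labelled, open for DMSO and filled for decitabine. Values listed at 0 stand left of the dotted line, as all 4 do for PAX1, SOX17, PCDH17 and EPB41L3.

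For a change common to both lines, all genes were tested together with edgeR's quasi-likelihood test, with cell line and treatment as terms. At an adjusted p of 0.05, 0.544% of 15427 genes were higher and 0.0778% lower. Of the 39 genes 25 had enough reads to be tested, and none of the 25 passed. At an unadjusted p of 0.05, 6 of the 25 were higher and 0 lower, beside 1200 higher and 397 lower of all genes tested. DESeq2 gave an adjusted p to 15 of the 25, not to TFPI2 or UCHL1, and called 0 of the 15. Total-count scaling called 3 higher (TFPI2, CYGB and SEPT9). The other 14 genes had too few reads for the filter. With no filter 10 of the 14 were tested, and 0 passed with edgeR, also at an unadjusted p of 0.05. Within a line there is no test. Here a gene was counted as changed at least 2-fold by the ratio of CPM, among genes with CPM of at least 1 in either library of the line.

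In CAL27 21 of the 39 genes reached that level. Of these 4 were at least 2-fold higher with decitabine (UCHL1, TFPI2, RARRES1 and DAPK1), where 5.13% of 14238 genes were, and 1 was lower (EDNRB), where 1.3% were. In the SCC15-labelled cells 19 reached it. There 10 were at least 2-fold higher, where 13.3% of 13894 genes were, and 0 lower, where 6.2% were. The genes had a median log2 ratio of 0.22 for CAL27 and 1.06 for the SCC15-labelled cells, beside medians over all genes of 0.00 and 0.07. Some of these genes reached the minimum through the decitabine library alone, and for them a high ratio follows in part from the choice. They were UCHL1, TFPI2 and CYGB in CAL27, and TFPI2, PAX5, RASSF2 and RUNX3 in the SCC15-labelled cells. With CPM of at least 1 asked of both libraries, a choice made after the values were seen, 2 of 18 genes were at least 2-fold higher in CAL27 (2.41% of all genes), with a median log2 ratio of 0.066. In the SCC15-labelled cells it was 6 of 15 (9.95% of all genes), with a median of 0.40. Both ratios also went with transcript base composition, as described at the end. Of the 14 genes with CPM of at least 1 in either library of each line, 8 had positive ratios in both lines, 1 negative in both and 5 opposite signs. The shares of all genes with these combinations of signs were not computed. Whether the 14 genes differ from other genes in this was therefore not tested.

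**Figure D3:**
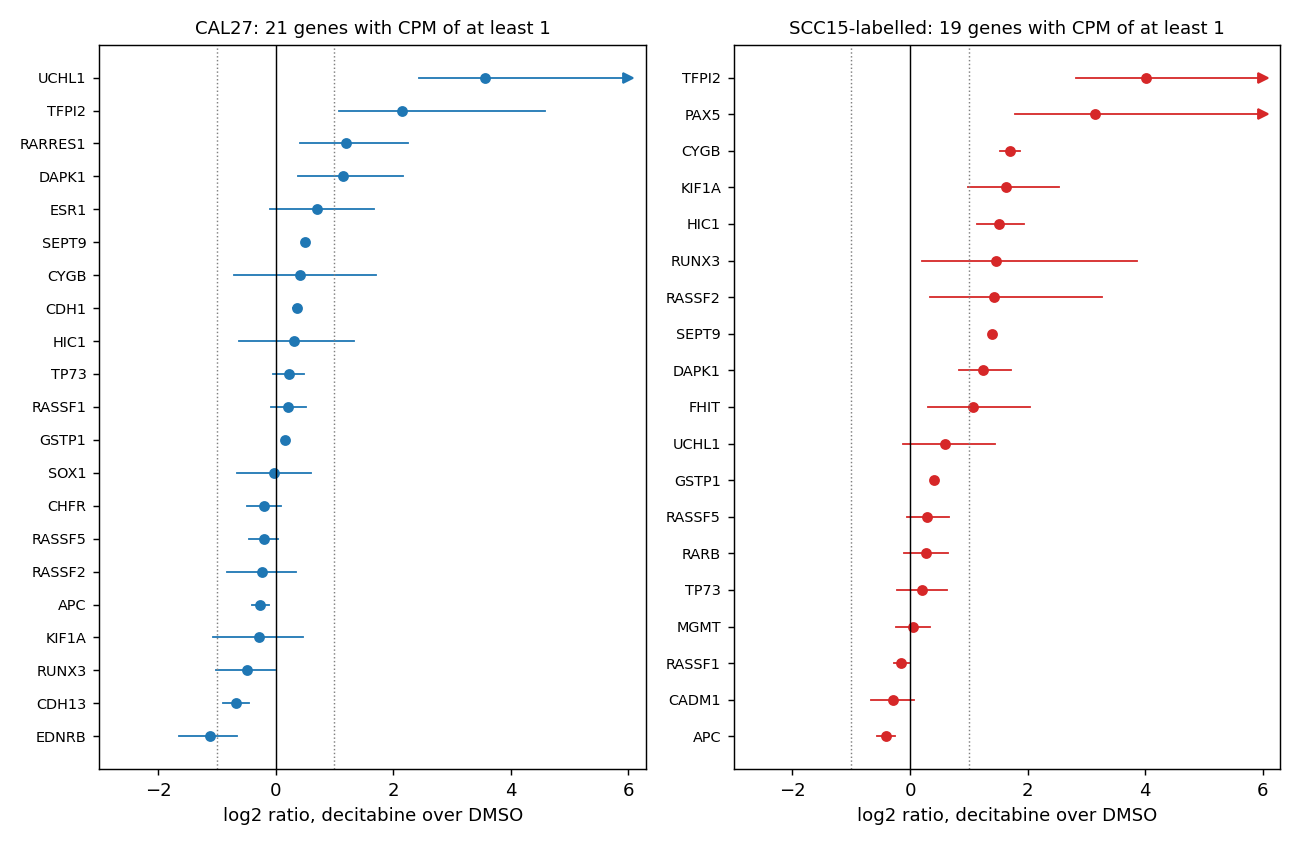
Log2 ratio of decitabine over DMSO (horizontal axis) for the genes with CPM of at least 1 in CAL27 (left, 21 genes) and in the SCC15-labelled cells (right, 19 genes). Bars are exact 95% intervals for counting error, an arrow marks a bar that runs past the axis, and dotted lines mark 2-fold. DAPK1 and TFPI2 stand to the right of the 2-fold line on both sides.

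Of the secreted factors and receptors, TFPI2 was at least 2-fold higher with decitabine in both lines. TFPI2 (ENSG00000105825, chromosome 7, 93885396 to 93890991 on GRCh38) encodes a Kunitz-type protease inhibitor of the extracellular matrix. It had 4, 27, 0 and 33 reads, so that both decitabine libraries were high and both DMSO libraries low. The log2 ratio was 2.15 in CAL27 (counting interval 1.08 to 4.57). In the SCC15-labelled cells the level with decitabine was 9.17-fold the 3-read floor of the DMSO library. The log2 counting interval there had a lower end of 2.82. On the log2 scale the change common to both lines was 3.72 ± 1.04 (standard error from the model) and did not pass (edgeR adjusted p = 0.0943), in a range from 0.00859 to 1.00 over 6 alternatives. It shares 44 exon bases with GNGT1 on the opposite strand, which had 32, 43, 25 and 31 reads.

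The retinoid-response gene RARRES1 had 15, 41, 2 and 2 reads, with a CAL27 log2 ratio of 1.20 (counting interval 0.41 to 2.25). RARRES1 was thus higher with the drug in CAL27 and had 2 reads in each library of the other line. AC080013.1, an antisense gene that overlaps it by 266 exon bases, had 6, 26, 6 and 2 reads. RARB, the retinoic acid receptor beta, had the opposite layout, with 11, 7, 103 and 149 reads and log2 ratios of -0.66 and 0.27. The oestrogen receptor gene ESR1 had 18, 34, 4 and 2 reads. EDNRB, the endothelin B receptor, had 109, 55, 0 and 0 reads. Its CAL27 log2 ratio of -1.11 (counting interval -1.64 to -0.66) made it the only gene at least 2-fold lower among those with CPM of at least 1, and with total-count scaling it no longer reached 2-fold. The netrin receptor gene DCC had 0, 1, 1 and 5 reads, and TMEFF2, a membrane protein with follistatin-like domains, had at most 2.

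Among genes of RAS effector, death and checkpoint signalling, DAPK1 was at least 2-fold higher in both lines. DAPK1 (ENSG00000196730, chromosome 9, 87497228 to 87708633) is a calmodulin-regulated kinase that promotes cell death. It had 16, 42, 58 and 167 reads, with log2 ratios of 1.15 (0.37 to 2.17) and 1.24 (0.82 to 1.72). In each line the decitabine library was the higher, and the treated CAL27 library stayed below the untreated SCC15-labelled one. The shared log2 fold of 1.25 ± 0.51 did not pass (edgeR adjusted p = 0.354).

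The RAS-association scaffolds differed among themselves. RASSF1, which couples RAS to Hippo pathway kinases, had 168, 218, 910 and 984 reads and log2 ratios of 0.22 and -0.15. RASSF2 had 52, 49, 6 and 23 reads, with log2 ratios of -0.23 and 1.43. RASSF5, which binds active RAP1, had 267, 258, 112 and 165 reads. Only the treated SCC15-labelled library of RASSF2 stood apart from its DMSO partner by 2-fold, and it remained below both CAL27 libraries. The fragile-site gene FHIT, a diadenosine hydrolase, had 9, 4, 17 and 45 reads and an SCC15-labelled log2 ratio of 1.06 (0.31 to 2.04). TP73, the p53 relative, had 220, 286, 84 and 116 reads and log2 ratios of 0.22 and 0.20, while its antisense neighbour TP73-AS1, with 633 shared exon bases, had 0, 4, 305 and 415. APC, the scaffold that directs beta-catenin to degradation, had 789, 733, 699 and 630 reads, and its log2 ratios of -0.26 and -0.41 were negative in both lines. The cyclin gene CCNA1 had 4, 0, 0 and 0 reads and DLEC1, which shares 1403 exon bases with ACAA1 on the other strand, 6, 10, 7 and 4.

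CHFR (ENSG00000072609, chromosome 12, 132822187 to 132956304), a ubiquitin ligase that delays entry into mitosis under stress, had 202 and 197 reads in CAL27. In the SCC15-labelled cells it had 0 reads with DMSO and 0 with decitabine. At the floor of 3 reads over both libraries, the level was 133-fold lower there (edgeR adjusted p for the line = 1.57e-11). The log2 counting interval of the line difference had an upper end of -6.75. All 4 nearest protein-coding neighbours (GOLGA3, ANKLE2, ZNF605 and ZNF26) had at least 10 reads in the SCC15-labelled libraries, GOLGA3 with 617 and 894. CHFR shares exon bases on its own strand with GOLGA3 and ZNF605, and reads there may not have been assigned to it.

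The DNA repair gene MGMT (ENSG00000170430, chromosome 10, 129467184 to 129768007), whose product removes alkyl groups from guanine, showed the reverse. It had 0 and 0 reads in CAL27 and 179 and 223 in the SCC15-labelled cells. Against the floor of 3 reads it was 134-fold higher there (edgeR adjusted p = 1.5e-11). The log2 counting interval of the line difference had a lower end of 6.76. With decitabine the CAL27 library still had none, and the SCC15-labelled log2 ratio was 0.05 (-0.23 to 0.35). Of its 4 nearest protein-coding neighbours, 3 had at least 10 reads over both CAL27 libraries: MKI67, PTPRE and C10orf143. For EDNRB and for SOX1 it was 2 of 4 in the SCC15-labelled libraries, and near EDNRB SCEL had 0 and 5 reads and POU4F1 0 and 2. Genes with 0 reads in both CAL27 libraries made up 2.11% of the 13894 genes with CPM of at least 1 in the SCC15-labelled cells, and of the 39 genes it was 1 of 19. The converse held for 3.06% of 14238 genes and for 3 of 21 of these genes (CHFR, EDNRB and SOX1). The neighbouring genes were looked up after these values were seen.

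CYGB (ENSG00000161544, chromosome 17, 76527356 to 76551175) encodes cytoglobin, an oxygen-binding globin of non-blood cells. It had 11, 17, 367 and 1434 reads. The SCC15-labelled log2 ratio was 1.70 (1.54 to 1.87) and that of CAL27 0.41 (-0.71 to 1.71). The shared log2 fold of 1.36 ± 0.39 did not pass (edgeR adjusted p = 0.116), and the alternatives ranged from 0.0273 to 1.00. PRCD, which overlaps CYGB by 248 exon bases on the other strand, had 0, 4, 31 and 141 reads, in the same order of libraries. GSTP1 had 12329, 15371, 5262 and 8335 reads, and its log2 ratios were 0.16 and 0.40. So of the 3 repair and detoxification genes, CYGB alone was at least 2-fold higher with the drug within a line.

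Among adhesion, cytoskeletal and traffic genes, UCHL1 had the largest CAL27 ratio of the 39 genes. UCHL1 (ENSG00000154277, chromosome 4, 41256413 to 41268455), a ubiquitin hydrolase abundant in neurons, had 1, 36, 23 and 43 reads. The log2 ratio was 3.56 in CAL27, with a counting interval of 2.44 to 10.36, and 0.60 in the SCC15-labelled cells (-0.12 to 1.44). The untreated CAL27 library stood alone at the low end, and the treated one lay between both SCC15-labelled libraries. The shared log2 fold was 1.97 ± 0.84 (edgeR adjusted p = 0.383). Whether the response differed between the lines could not be tested, since that difference is the 1 residual degree of freedom of the model.

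SEPT9 (ENSG00000184640, chromosome 17, 77280569 to 77500596) had 4708, 7412, 4186 and 13168 reads, and the decitabine library was the higher in both lines. The log2 ratios were 0.50 (0.45 to 0.55) and 1.39 (1.34 to 1.44). These narrow intervals cover counting error alone. The shared log2 fold of 0.95 ± 0.30 did not pass (edgeR adjusted p = 0.167, range over the alternatives 0.0184 to 1.00). KIF1A, a motor that carries synaptic vesicle precursors, had 33, 30, 19 and 75 reads, with an SCC15-labelled log2 ratio of 1.63 (0.98 to 2.53) and a CAL27 ratio of -0.28. The basement membrane gene NID2, which overlaps RTRAF on the other strand, had 5, 4, 8 and 11 reads, and MAL, a proteolipid of apical transport, had 2 reads in 1 library and 0 in the others.

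CDH1 had 2727 and 3911 reads in CAL27 and 4 and 1 in the SCC15-labelled cells. CDH13, the membrane-anchored T-cadherin, had 399, 279, 1 and 10 reads. The CDH13 log2 ratio was -0.67 in CAL27 (-0.90 to -0.45). The SCC15-labelled ratio was 1.85 (0.25 to 8.50), with both libraries below the minimum CPM of 1. CADM1, an immunoglobulin-like adhesion molecule, had 0, 1, 127 and 124 reads. For CDH1 and CADM1 the line with the lower level had 1 read in the treated library.

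Of the 9 lineage transcription factors, 3 had CPM of at least 1 in the SCC15-labelled cells and all 3 were at least 2-fold higher with decitabine there (13.3% of all genes), PAX5 and RUNX3 having reached that level through the treated library alone. With the GC trend removed HIC1 and RUNX3 were below 2-fold. In CAL27 0 of 3 were (5.13% of all genes). PAX5 (ENSG00000196092, chromosome 9, 36833275 to 37034185), a factor of B lymphocytes, had 2, 2, 0 and 17 reads. In the SCC15-labelled cells the level with the drug was 4.73-fold the floor of 3 reads, with a lower end of the log2 counting interval of 1.78. PAX5 had too few reads for the shared test. HIC1 (ENSG00000177374, chromosome 17, 2054154 to 2063241), a transcriptional repressor, had 17, 24, 71 and 246 reads and log2 ratios of 0.31 and 1.51 (1.14 to 1.93). SMG6 overlaps it by 2419 exon bases on the opposite strand and had 351, 333, 272 and 720 reads. RUNX3, a factor of epithelial and T cell differentiation, had 79, 62, 4 and 17 reads, with log2 ratios of -0.49 (-1.01 to -0.01) and 1.46 (0.21 to 3.86).

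SOX1 (ENSG00000182968, chromosome 13, 112067647 to 112070488), a factor of neural progenitors, had 44, 48, 0 and 0 reads. In CAL27 its log2 ratio was -0.03 (-0.65 to 0.59), and the treated SCC15-labelled library still had none. The heart and gut factor GATA4 had 0, 1, 10 and 16 reads and its relative GATA5 had 2 reads in the treated SCC15-labelled library alone. TCF21, a mesenchymal factor, had 2 reads in treated CAL27, while PAX1 and SOX17 had none anywhere. A 0 here allows up to 3 reads, so low levels of these transcripts were not detectable at this depth.

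Next, the levels were compared between the lines. In the same edgeR model, 20 of the 25 tested genes differed between the lines at an adjusted p of 0.05, where 44.2% of the 15427 genes did. Of the 20, 8 were higher in the SCC15-labelled cells (background 21.6%) and 12 lower (background 22.7%). These p-values rest on 1 residual degree of freedom per gene and mostly on spread borrowed across genes. They say nothing of other cultures. CDH1 was lower, with 5 reads in all against 6638 in CAL27 (adjusted p = 1.06e-18). CDH13, EDNRB and SOX1 followed the same direction. Against the floor of 3 reads EDNRB was 54.6-fold and SOX1 30.7-fold lower (adjusted p = 8.38e-08 and 6.85e-06). The log2 counting intervals of EDNRB and SOX1 had upper ends of -5.46 and -4.61. CDH13 had a log2 difference of -5.94 ± 0.57 (adjusted p = 4.67e-11).

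RUNX3 (-2.86 ± 0.69, adjusted p = 0.000857), TP73 (-1.34 ± 0.38, adjusted p = 0.00426) and GSTP1 (-1.05 ± 0.29, adjusted p = 0.0028) were also lower on the log2 scale. In the other direction CYGB had a log2 difference of 5.81 ± 0.43 (adjusted p = 4.56e-14) and RASSF1 of 2.31 ± 0.31 (adjusted p = 1.05e-07). RARB was higher by 3.78 ± 0.59 (adjusted p = 1.72e-06) and HIC1 by 2.75 ± 0.52 (adjusted p = 3.44e-05). CADM1 had 1 read in CAL27 and 251 in the SCC15-labelled cells, a log2 counting interval of 5.48 to 13.28 (adjusted p = 2.99e-09). APC, SEPT9, KIF1A, UCHL1 and TFPI2 did not pass.

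Of the 20 line calls, 14 held in every alternative that gave an adjusted p. The calls of RASSF2, RASSF5, DAPK1, FHIT, RARRES1 and ESR1 ended in at least 1 alternative, and with DESeq2 all 6 ended, with adjusted p from 0.0555 (DAPK1) to 0.305 (FHIT). Beside the adhesion genes, some epithelial markers differed between the lines. EPCAM had 4368, 4585, 31 and 39 reads and GRHL2 612, 610, 0 and 0. The keratin genes KRT8, KRT18 and KRT19 were not called different, KRT8 with 18888, 15699, 11498 and 24882 reads and KRT18 with 9820, 6413, 10664 and 15061. The mesenchymal cadherin gene CDH2 had 917, 786, 0 and 14 reads. Of the 7 general epithelial markers 4 were lower and 0 higher in the SCC15-labelled cells, with summed levels of 2428 and 1819 CPM in CAL27 and 1584 and 2383 CPM there. Of the 6 mesenchymal markers 4 were higher and 1 lower, with summed levels of 223 and 218 CPM in CAL27 and 3166 and 2165 CPM there. The part of these differences in the values of the 39 genes was not tested.

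**Figure D4:**
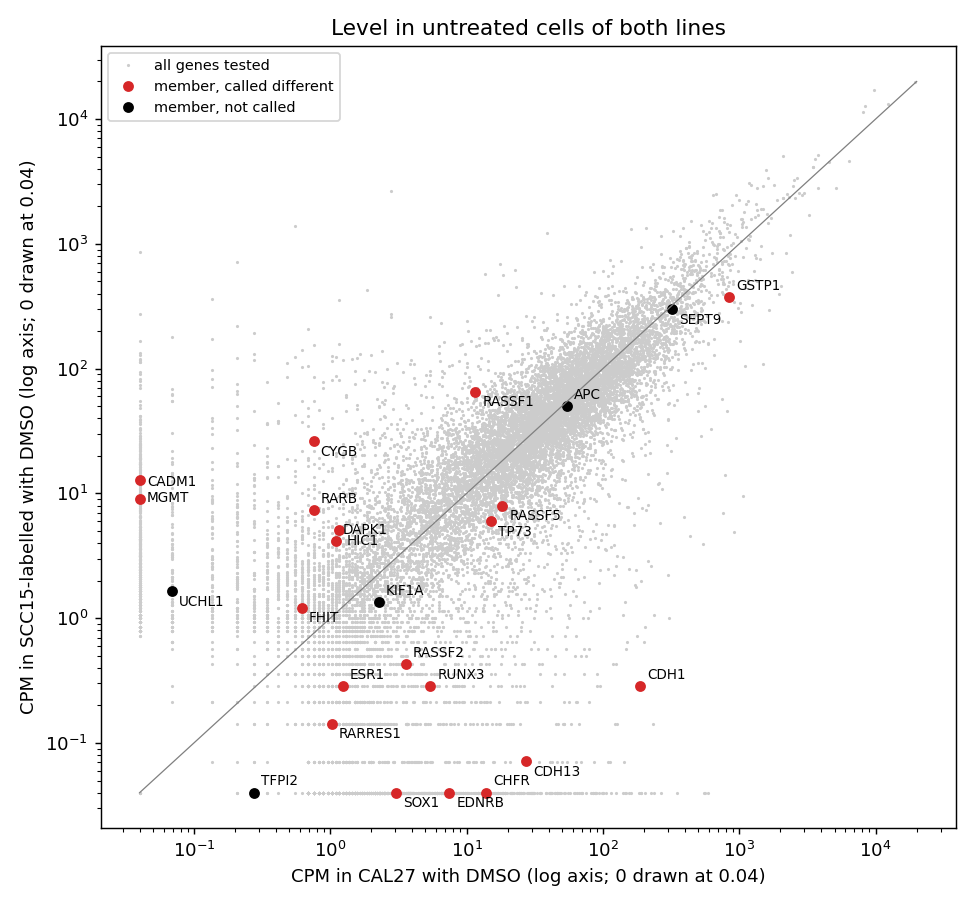
Scaled CPM with DMSO in CAL27 (horizontal, log axis) and in the SCC15-labelled cells (vertical, log axis) for all 15427 genes tested (grey) and for the 25 tested genes of the 39, red where called different between the lines. A value of 0 is drawn at 0.04, and the line marks equal levels. CDH1 and CHFR lie far below the line, and CYGB, CADM1 and MGMT far above it.

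Further genes of the same pathways were read from lists chosen with earlier results known. Of 21 genes of retinoid transport, synthesis and response, 14 were tested. With decitabine 0 were lower across both lines (0.0778% of all genes) and 1 rose (0.544%). This was DHRS3, a retinal reductase, with 293, 544, 52 and 375 reads and a shared log2 fold of 1.60 ± 0.39 (edgeR adjusted p = 0.0411). At an unadjusted p of 0.05, 7 of the list were higher (7.78% of all genes) and 0 lower (2.57%), and DESeq2 called 0 of the 11 it gave an adjusted p, so DHRS3 passed with edgeR and not with DESeq2 (adjusted p = 0.388). CRABP2, a retinoic acid carrier, had 45, 134, 32 and 120 reads and CYP26B1, which degrades retinoic acid, 5, 24, 17 and 90. For both genes each decitabine library was over 2-fold higher than its DMSO partner, and neither passed (adjusted p = 0.165 and 0.2). STRA6, a retinol transporter, had 0, 4, 1273 and 2874 reads. The medians of this list were 0.40 in CAL27 and 1.10 in the SCC15-labelled cells on the log2 ratio scale, beside 0.00 and 0.07 for all genes, and were not adjusted for GC content.

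Of 14 cadherin and nectin adhesion genes 13 were tested, of which 2 rose (0.544% of all genes) and 0 fell (0.0778%). At an unadjusted p of 0.05, 7 of the 13 were higher (7.78% of all genes) and 0 lower (2.57%). CADM4, a relative of CADM1, had 104, 298, 48 and 295 reads and a shared log2 fold of 1.84 ± 0.40 (edgeR adjusted p = 0.0174). JUP, plakoglobin of desmosomes and adherens junctions, had 3817, 6734, 81 and 545 reads and a fold of 1.51 ± 0.34 (adjusted p = 0.0212). With DESeq2, 0 of the 12 genes given an adjusted p passed, so both calls ended there (adjusted p = 0.229 for CADM4 and 0.149 for JUP). Both ended as well with limma on log2(FPKM + 1), with the GC trend removed and without the line as a block, and so did that of DHRS3. CADM3 had 0, 0, 104 and 361 reads, and CTNNBIP1, which blocks beta-catenin, 440, 637, 91 and 293. So CADM4 passed, while CADM1 stayed at 0 and 1 reads in CAL27 and at 127 and 124 in the other line.

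Of 16 RASSF and Hippo kinase genes 14 were tested and 0 passed the edgeR test, beside 1 higher and 0 lower at 0.05 without adjustment of p and 0 of 12 with DESeq2. RASSF4 had 322, 407, 33 and 136 reads, RASSF6 32, 75, 0 and 0, RASSF7 431, 692, 204 and 332, and DAPK2 33, 95, 4 and 7. RASSF6 was without reads in the SCC15-labelled cells at either treatment. Of 25 other genes reported methylated in head and neck carcinoma, 13 were tested and 0 passed, beside 2 higher and 1 lower at 0.05 without adjustment of p and 0 of 10 with DESeq2. The Wnt antagonist SFRP1 had 9, 24, 0 and 64 reads, the protease inhibitor TIMP3 199, 311, 8070 and 19588, HOXA9 22, 21, 1352 and 760, and the cell cycle inhibitor CDKN2A 562, 894, 2884 and 5314. SFRP1 shared the layout of TFPI2, low in both DMSO libraries and higher in both decitabine libraries.

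The treatment ratios went with base composition. GC content was taken from the longest annotated transcript, and the 39 genes had a median of 52.6%, beside 48.2% for all genes tested. Across genes, which are not independent replicates, Spearman's rho of ratio and GC was 0.27 in CAL27 and 0.54 in the SCC15-labelled cells. In CAL27 the decile of genes with the lowest GC had a median log2 ratio of -0.11 and the highest decile 0.25. In the SCC15-labelled cells these medians were -0.52 and 0.62. With this trend removed, 6 of the 19 genes in the SCC15-labelled cells were at least 2-fold higher, where 8.31% of all genes were, and the median was 0.79. TFPI2, PAX5, RASSF2, FHIT, CYGB and KIF1A were these 6, and HIC1, RUNX3, SEPT9 and DAPK1 had 0.87, 0.95, 0.79 and 0.95. Of the 6, TFPI2, PAX5 and RASSF2 had reached the minimum CPM through the decitabine library alone, which favours a high ratio. With the trend removed, the count was not computed for genes with CPM of at least 1 in both libraries. In CAL27 the median turned to -0.14, and UCHL1, TFPI2, RARRES1 and DAPK1 stayed at 3.33, 2.21, 1.21 and 1.06. There UCHL1 and TFPI2 had reached the minimum through the decitabine library alone. The part of base composition in the sequencing itself was not tested.

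**Figure D5:**
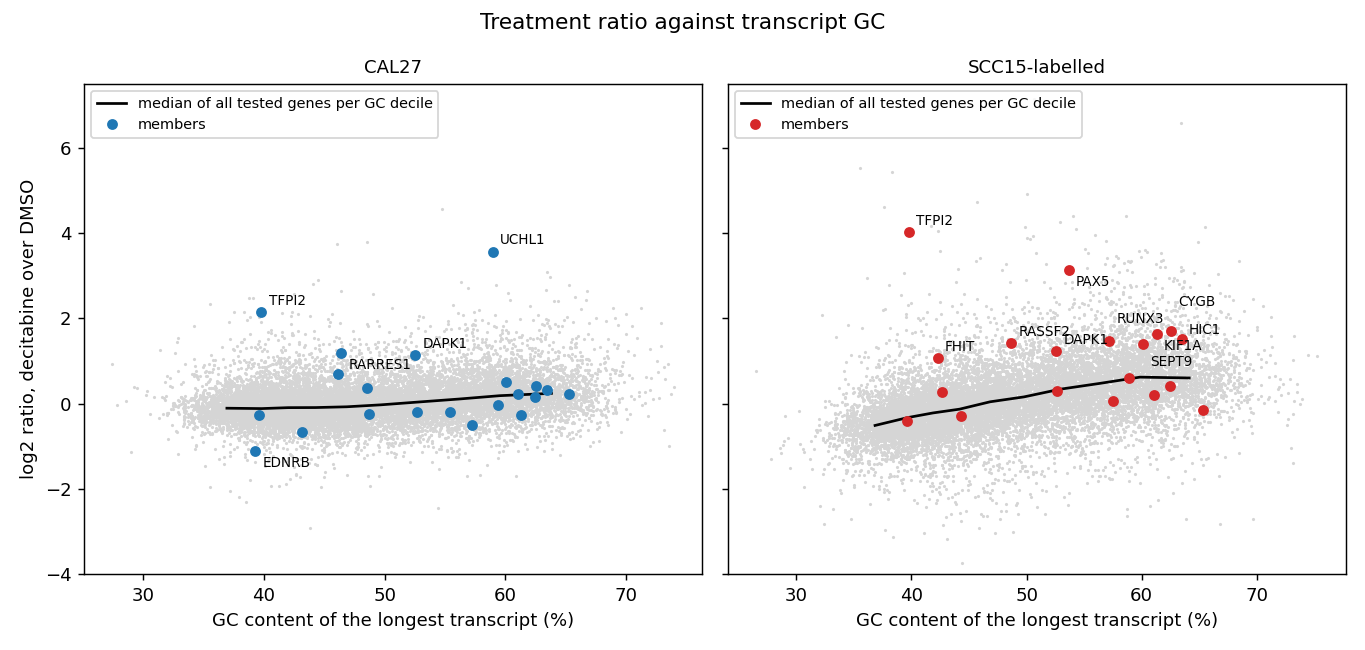
Log2 ratio of decitabine over DMSO (vertical axis) against transcript GC content in percent (horizontal axis) in CAL27 (left) and the SCC15-labelled cells (right). Grey points are tested genes with CPM of at least 1, the black line joins the median ratio of each GC decile, and coloured points are the genes described here. TFPI2 stands high at 39.8% GC in both panels, whereas CYGB, HIC1 and SEPT9 lie at GC contents where the black line is highest.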

How the data were processed

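Read counts per gene and FPKM were deposited by the authors for 4 RNA libraries, and the FPKM follow from the counts with 1 fixed length per gene. Alignment and counting involved GRCh38, HISAT2 and HTSeq 0.13.5, per the submitters' processing notes. Not given in the sources used here were the settings, the annotation release and the use of strand. Whether reads of genes that overlap on opposite strands were told apart is therefore not known. All 51103 identifiers were found in GENCODE release 29, which gave positions and transcript GC.

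The members, lists and tests were chosen with earlier results of these data known. Members were named in full if they passed a test, changed 2-fold within a line, or had 0 reads in both DMSO libraries or both libraries of a line and at least 10 elsewhere. Reads of the other members are given beside them. Genes of the further lists were named, at most 4 per list, where they passed a test or changed 2-fold in both lines, by the smallest decitabine p. The model (edgeR 4.0.16, R 4.3.3, TMM, filterByExpr with minimum count 10 and minimum total 15, Benjamini-Hochberg over 15427 genes) had terms for line and treatment and left 1 residual degree of freedom, so the spread was borrowed across genes (prior degrees of freedom 36.1). The line pairs the libraries: r was 0.983 in CAL27 and 0.963 in the SCC15-labelled cells on log2 CPM, and at most 0.73 across lines. Log2 ratios within a line were taken from CPM scaled by TMM, with 2 as the prior count. Intervals are exact conditional binomial 95% intervals. They and the floor of 3 reads cover counting error only, since the labels name no molecular identifiers. The fit was also run on simulated counts, with the same spread for every gene and the same change in both lines. These data need not share those settings, so that run does not show how many changes were missed here. Alternatives used limma 3.58.1, DESeq2 1.42.0, other filters and scalings, and removal of the GC trend by a smoothing spline.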

Additional observations from a re-analysis of the deposited data

Results flagged for a closer look

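For CDH13 and RUNX3 the counting intervals of the decitabine ratio lay on opposite sides of 0 in the 2 lines. CDH13 had 399 reads without and 279 with the drug in CAL27, and 1 and 10 in the SCC15-labelled cells, a difference of 2.52 between the log2 ratios. RUNX3 had 79 and 62 reads in CAL27 and 4 and 17 in the SCC15-labelled cells, a difference of 1.95. With total-count scaling the CAL27 interval of RUNX3 became -0.87 to 0.13, which includes 0, and that of CDH13 -0.76 to -0.31. Both genes were low in the untreated SCC15-labelled cells. CDH13 stayed below the minimum CPM of 1 in both libraries there (0.071 and 0.595 CPM), so its ratio was left out of the counts within a line. RUNX3 reached the minimum through the treated library alone (0.285 and 1.01 CPM). With 1 library per line and treatment, the difference between the lines was not tested.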

How the results depend on the processing

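Across all genes, 84 were called higher and 12 lower with decitabine. The counts were 313 and 21 with total-count scaling, 155 and 21 with no filter on low counts, 27 higher with DESeq2, 1 and 1 with limma on log2(FPKM + 1), and 0 and 0 without the replicate block. With the GC trend removed and the block kept they were 0 and 0, where the prior degrees of freedom fell to 10.2. For the members, 0 became 3 higher with total-count scaling and 1 (TFPI2, adjusted p = 0.00859) with limma on log2(FPKM + 0.1). The count of members that differed between the lines stayed within 1.5 times under all 8 alternatives. Without the block it was 8 higher and 10 lower. In CAL27, 4 members higher and 1 lower became 1 and 0 on log2(FPKM + 1), and 0 lower with total-count scaling, which shifted the median of all genes by 0.14. The CAL27 median of 0.22 became -0.14 with the GC trend removed, 0.35 with total-count scaling, 0.19 at a minimum CPM of 0.5 and 0.10 on log2(FPKM + 1). In the SCC15-labelled cells, 10 higher became 6 with the GC trend removed and 2 on log2(FPKM + 1). That median of 1.06 became 0.79 with the GC trend removed, 0.20 on log2(FPKM + 1), 0.83 at a minimum CPM of 0.5, 1.08 with total-count scaling and 1.12 with a prior count of 0.5. The pseudocount of 1 shrinks folds of low genes by construction. For the other changes the cause was not tested. No replicate could be left out, since each group had 1 library. With CPM of at least 1 in both libraries, added after seeing the data, 2 were higher with a median of 0.066 in CAL27, and 6 with a median of 0.40 in the SCC15-labelled cells. Of the 14 members left out by the filter, the no-filter fit tested 10.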
